A study of Sus scrofa with 16 samples.

Results

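Integrins are the receptors by which cells hold the extracellular matrix. Each is a pair of an alpha and a beta subunit that spans the membrane, binds matrix outside the cell and couples through adaptor proteins to the actin cytoskeleton inside it. In the heart they carry force between cardiomyocytes and the basement membrane, and on fibroblasts they bind the collagen and fibronectin laid down after injury. Described here are 10 genes, chosen by symbol: the 6 alpha subunit genes *ITGA1*, *ITGA5*, *ITGA7*, *ITGA8*, *ITGA11* and *ITGAV*, the 3 beta subunit genes *ITGB1*, *ITGB3* and *ITGB5*, and *ITGBL1*, which codes for a secreted protein related to beta integrins and is not itself a receptor subunit. All 10 were among the 22629 genes measured.

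RNA was sequenced from left ventricular myocardium of 8 pigs, operated at about 1 month of age and killed 4 weeks later. In 4 ischemia/reperfusion (IR) pigs the left anterior descending artery was occluded for 1 h and then reopened, and 4 sham pigs had the operation without the occlusion. Each pig gave a scar zone and a border zone sample, so that the 16 samples form 4 groups of 4, each with 2 females and 2 males. IR pigs 2 and 14 and sham pigs 4 and 5 were female, and IR pigs 9 and 11 and sham pigs 12 and 13 were male. The scar zone was dissected by position in both kinds of pig and held injured and viable myocardium together, and the sham scar zone is tissue from the same place in hearts that had the operation without the occlusion.

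Library totals were between 15427700 and 49045200 estimated counts, rounded, and 3 counts corresponded to between 0.0612 and 0.194 CPM (counts scaled to a common depth). The tissue label was matched by 10 measured cardiomyocyte markers, whose summed level was between 53844 and 75153 TPM (a level scaled for transcript length and depth). The IR scar library of pig 14, a female, held 1.15 TPM of the Y-linked gene *DDX3Y*, against at most 0.171 TPM in the other female libraries and at least 26.5 TPM in male libraries. The scar zone differences of the 10 genes between IR and sham pigs are therefore also given without this pig, but those of ligands, adaptors and other integrins are not. TPM and CPM scaled by the trimmed mean of M-values (TMM) did not run in parallel in every library. In the IR scar library of pig 9, the median gene stood 0.54 log2 units higher in TPM, relative to CPM, than in the typical library, and in that of pig 11 it stood 0.15 higher. The scar library of pig 9 also had the lowest share of mitochondrial counts, 12.05%, against 14.4% to 20.5% in the other 15, and the part of this in its integrin values was not tested. Levels are therefore given in TPM, while tests were made on counts or CPM, except those of subunit ratios and the limma alternatives, which used TPM. In bulk tissue, more cells of a type and more RNA per cell cannot be told apart.

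The 10 genes covered a wide range of levels. *ITGB1*, the common beta subunit that pairs with most matrix-binding alpha chains, had the highest median, 170 TPM over the 16 samples (range 123 to 305). *ITGA7*, the laminin-binding alpha chain of striated muscle, followed at 141 TPM (84.9 to 222) and was below *ITGB1* in 13 of 16 samples. *ITGA5*, the fibronectin receptor alpha chain, had a median of 70.3 TPM and the narrowest range of the 10, with the highest sample 1.64 times the lowest. *ITGB5*, a partner of the alpha V chain at vitronectin, had a median of 28.4 TPM. Medians were 18.2 TPM for the collagen-binding *ITGA1* and 16.8 TPM for *ITGAV*, and each was the higher of the pair in 8 of 16 samples. *ITGA11*, the fibrillar collagen receptor chain of fibroblasts, had a median of 5.19 TPM. The lowest medians were those of *ITGB3*, the beta subunit shared by the platelet fibrinogen receptor and the alpha V vitronectin receptor, at 1.65 TPM, *ITGBL1* at 1.20 TPM and *ITGA8*, a chain for RGD (arginine-glycine-aspartate) ligands such as nephronectin, at 0.861 TPM. *ITGB3* was above *ITGBL1* in 8 of 16 samples and *ITGBL1* above *ITGA8* in 10 of 16, so these neighbours did not have a fixed order.

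The 6 alpha subunits together made up 1.15 to 2.03 times the TPM of *ITGB1*. *ITGA7* was the largest share of their sum in all 16 samples, 55.1% ± 5.7 (SD, n = 16), and *ITGA5* was second with 28.0% ± 4.7. This order holds for levels scaled by transcript length, as in CPM *ITGA5* made up 48.5% and *ITGA7* 35.9% of the sum. *ITGAV* gave 7.04% ± 1.74 and *ITGA1* 6.80% ± 2.04. *ITGA11* gave 2.51% ± 1.67 and *ITGA8* 0.480% ± 0.399. In the IR scar library of pig 9, *ITGA11* reached 8.39% and *ITGAV* 12.2%, the highest share of each in any sample, while *ITGA5* was at its lowest, 18.04%.

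**Figure D1:**
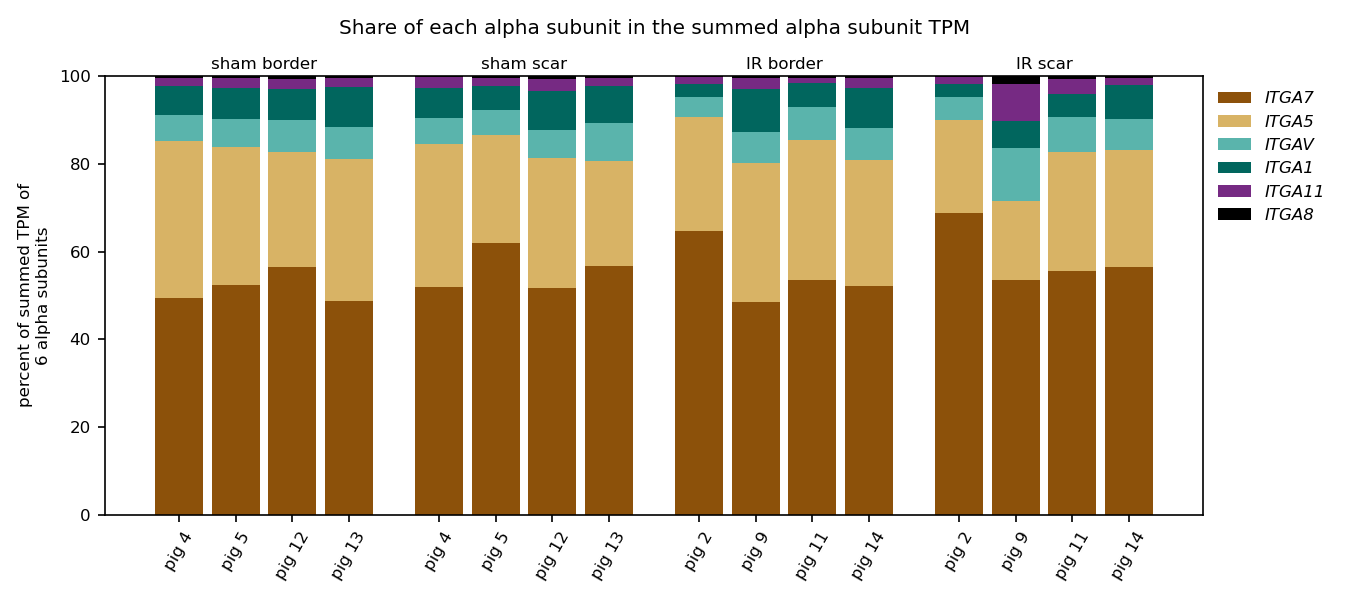
Stacked bars give the percent of the summed TPM of 6 alpha subunits that each subunit took in each of the 16 samples, grouped by surgery and zone. *ITGA7* is the largest share everywhere, between 48.4% and 68.8%, and the IR scar bar of pig 9 has the widest *ITGA11* band, 8.39%.

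The first comparison asked which subunits differed between IR and sham pigs in the scar zone. *ITGBL1*, *ITGA11*, *ITGB3*, *ITGA8*, *ITGAV* and *ITGB1* were all at their highest in the scar libraries of the male IR pigs 9 and 11, above all 14 other samples in TPM and in log2 CPM, whereas the female IR pigs 2 and 14 lay within or below the sham range in TPM for *ITGBL1*, *ITGA11*, *ITGB3*, *ITGA8* and *ITGAV*.

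*ITGBL1* had the largest difference of the 10. It was at 18.3 TPM in IR pig 9 and 15.2 TPM in IR pig 11, against 0.169 TPM in IR pig 2 and 0.694 TPM in IR pig 14. Sham scar zones held 0.764, 1.18, 0.528 and 0.801 TPM in pigs 4, 5, 12 and 13. The groups overlapped, as 2 IR pigs were above all sham pigs and 1 was below them. The log2 fold change was 3.01 ± 1.07 (SE; quasi-likelihood test of edgeR, Benjamini-Hochberg adjusted p = 0.438). Without pig 14 it was 3.37, with sex in the model 1.82 and with 1 factor of unwanted variation, estimated from the counts, 1.21.

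*ITGA11* was at 29.6 TPM in IR pig 9 and 11.2 TPM in IR pig 11, and at 4.37 and 4.28 TPM in IR pigs 2 and 14. Sham values were 6.26, 4.98, 6.96 and 4.17 TPM in pigs 4, 5, 12 and 13. Only the male IR pigs were above the sham range, and the log2 fold change was 0.87 ± 0.46 (SE, edgeR adjusted p = 0.484). Without pig 9 it was 0.18, without pig 14 it was 1.10, and with the factor of unwanted variation 0.53. The other collagen receptor chain, *ITGA1*, had no such pattern, with 9.43, 21.4, 16.6 and 20.3 TPM in IR pigs 2, 9, 11 and 14 and 13.9 to 21.0 TPM in sham pigs. Its log2 fold change was -0.29 ± 0.22 (SE, edgeR adjusted p = 0.595), -0.14 by limma on log2(TPM + 1) and -0.51 without pig 14.

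*ITGB3* was at 8.18 and 3.93 TPM in IR pigs 9 and 11 and at 1.20 and 1.12 TPM in IR pigs 2 and 14. The sham scar zones of pigs 4, 5, 12 and 13 held 2.39, 2.04, 1.72 and 1.42 TPM, so that the male IR pigs were above and the female IR pigs below every sham pig. The log2 fold change was 0.59 ± 0.46 (SE, edgeR adjusted p = 0.595), and it was 0.04 without pig 9, 0.84 without pig 14, 0.34 with sex in the model and 0.22 with the factor. *ITGB5* had a different course, with 28.3, 49.2, 30.8 and 25.7 TPM in IR pigs 2, 9, 11 and 14 against 27.0 to 38.0 TPM in sham pigs. Its log2 fold change was -0.18 ± 0.15 on counts (SE, edgeR adjusted p = 0.614), -0.06 without pig 5 and -0.15 without pig 14. It was 0.017 by limma on log2(TPM + 1), so its direction depended on the scale.

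*ITGA8* was at 6.68 TPM in IR pig 9 and 2.13 TPM in IR pig 11, against 0.578 and 1.06 TPM in IR pigs 2 and 14. Sham pigs 4, 5, 12 and 13 held 0.633, 0.832, 1.27 and 0.834 TPM. The log2 fold change was 1.17 ± 0.54 (SE, edgeR adjusted p = 0.449) and was 0.40 without pig 9, 1.37 without pig 14, 0.78 with the factor and 0.66 by limma on log2(TPM + 1).

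*ITGAV*, the alpha chain that pairs with several beta chains at vitronectin, fibronectin and osteopontin, was at 14.995, 43.1, 25.3 and 19.1 TPM in IR pigs 2, 9, 11 and 14 and at 15.4, 14.9, 15.3 and 19.8 TPM in sham pigs 4, 5, 12 and 13. *ITGB1* was at 159, 305, 227 and 172 TPM in the same IR pigs and at 159, 147, 172 and 164 TPM in the sham pigs. For both genes the margin of the male IR pigs was narrow once libraries were scaled by TMM. The lower of their pair of *ITGB1* values was 9.07 log2 CPM and the highest of the other 14 samples was also 9.07, and for *ITGAV* these were 6.91 and 6.90. Log2 fold changes were 0.52 ± 0.24 for *ITGAV* and 0.21 ± 0.13 for *ITGB1* (SE, edgeR adjusted p = 0.449 and 0.513). Without pig 14 they were 0.55 and 0.23, and by limma on log2(TPM + 1) that of *ITGB1* was 0.38.

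*ITGA7* was at 203, 188, 178 and 150 TPM in the scar zones of IR pigs 2, 9, 11 and 14, and at 136, 159, 123 and 130 TPM in sham pigs 4, 5, 12 and 13. The group means were 180 ± 22.7 and 137 ± 15.8 TPM (SD, n = 4). On the count scale the difference was smaller, a log2 fold change of 0.21 ± 0.17 (SE, edgeR adjusted p = 0.615), with 1 IR pig above all sham pigs in log2 CPM. The log2 fold change was 0.07 without pig 2, 0.21 without pig 14 and 0.39 by limma on log2(TPM + 1). *ITGA5* was at 71.0 ± 11.2 TPM in IR and 68.5 ± 13.01 TPM in sham scar zones (SD, n = 4), and its log2 fold change was -0.10 ± 0.19 on counts (SE, edgeR adjusted p = 0.837). The direction turned by limma on log2(TPM + 1), to 0.057, and without pig 9, to 0.041, and the value was -0.18 without pig 14.

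**Figure D2:**
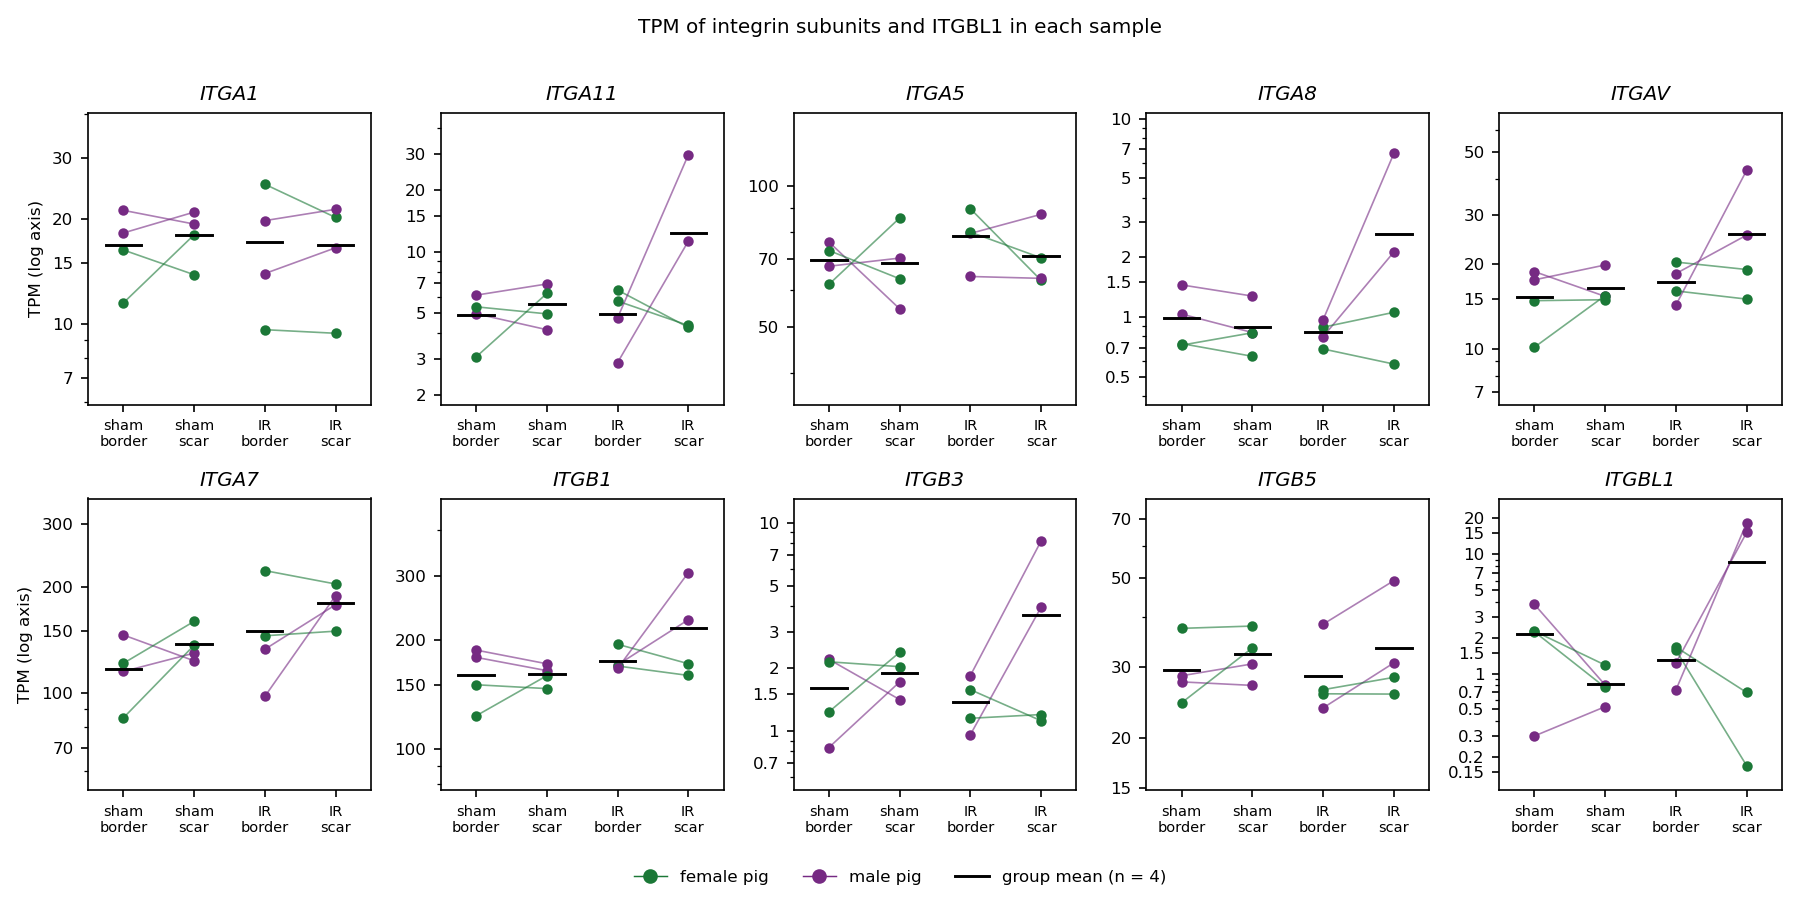
Each panel gives the TPM of 1 gene on a log axis in the 16 samples, with lines joining the border and scar zone of a pig, colour for sex and a black bar for the group mean. For *ITGBL1*, *ITGA11*, *ITGB3*, *ITGA8*, *ITGAV* and *ITGB1* the male IR pigs 9 and 11 are the highest points in the scar zone, while *ITGA1*, *ITGA5* and *ITGA7* have no such pair above all other points.

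Of the 10 genes, 0 were called in the scar zone, where a call needed a 2-fold change and an adjusted p of at most 0.05, and 0% of all 14023 genes tested were. At an unadjusted p of at most 0.05, 1 of 10 was higher in IR, *ITGBL1*, against 6.57% of all genes, and 0 were lower, against 4.64%. Log2 fold changes were positive for 7 of 10, with a median of 0.37 against 0.03 over all genes. IR pigs were above all sham pigs in log2 CPM for 0 of the 10 genes, against 2.03% of all genes. Exact two-sided permutation tests on log2 CPM gave p between 0.114 for *ITGAV* and 0.686 for *ITGA5* (4 against 4, smallest possible p = 0.0286). DESeq2 also called 0 of the 10, and limma 0 of the 9 that passed its filter on TPM, which *ITGBL1* did not. The number of the 10 at an unadjusted p of at most 0.05 in either direction was 4 without pig 2, against 18.2% of all genes, 4 without pig 14, against 16.7%, 2 without pig 13, against 11.2%, and 0 without pig 12, against 7.92%.

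In the border zone the male IR pigs did not stand above the sham range for *ITGBL1*, *ITGA11*, *ITGB3* or *ITGA8*. For *ITGBL1* the spread was wider among sham than among IR pigs. *ITGBL1* was at 1.57, 0.728, 1.22 and 1.67 TPM in IR pigs 2, 9, 11 and 14, and at 2.24, 2.27, 0.300 and 3.80 TPM in sham pigs 4, 5, 12 and 13. The border zones of the male IR pigs held 4.76 and 2.88 TPM of *ITGA11*, 1.85 and 0.961 TPM of *ITGB3* and 0.969 and 0.796 TPM of *ITGA8*, each within or below the range of the sham border zone. Log2 fold changes of the 10 genes ran from -0.78 ± 0.57 for *ITGBL1* to 0.34 ± 0.24 for *ITGA7* (SE, edgeR adjusted p between 0.988 and 0.998). Leaving out single pigs, *ITGBL1* ran from -1.15 (without pig 12) to -0.40 (without pig 13) and *ITGA7* from 0.09 (without pig 2) to 0.53 (without pig 9). None of the 10 was called (0% of 13728 genes) or passed an unadjusted p of at most 0.05, which 2.09% of all genes did as higher and 1.69% as lower. By exact permutation the lowest p was 0.314, for *ITGAV* and *ITGB1*.

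**Figure D3:**
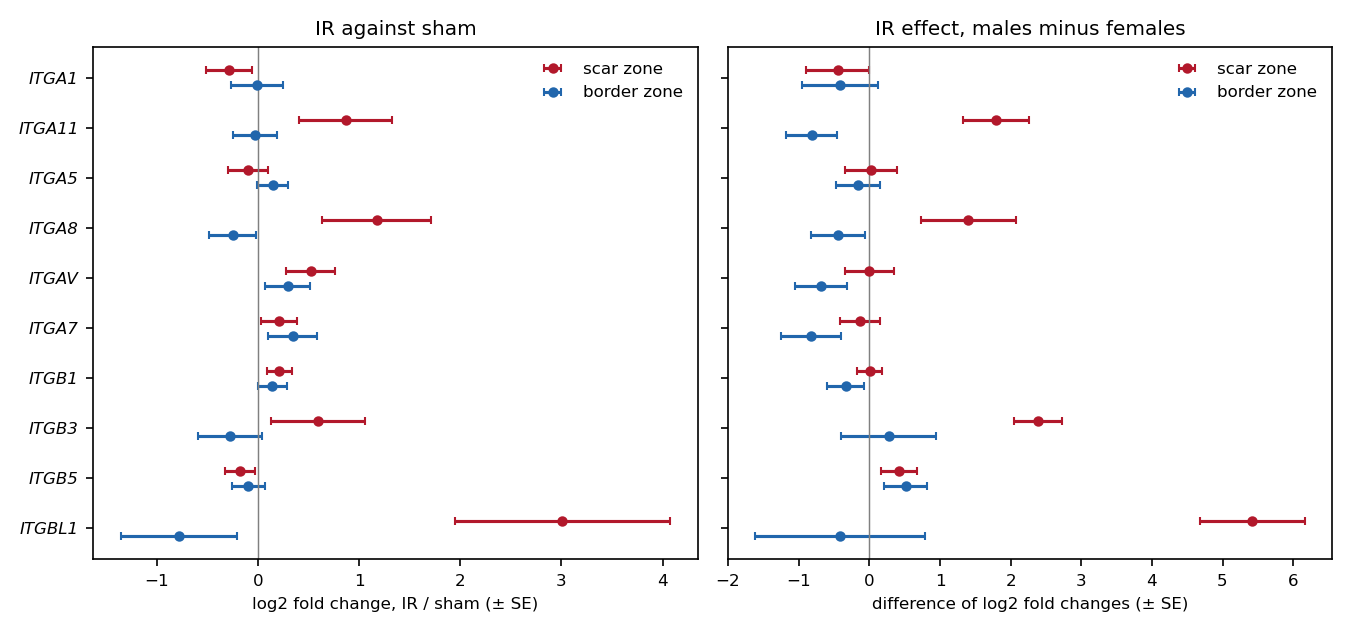
Points with SE bars give log2 fold changes from edgeR, on the left for IR against sham in each zone (n = 4 per group) and on the right for the difference of this effect between males and females (n = 2 per sex and group). In the scar zone *ITGBL1* stands at 3.01 on the left and 5.42 on the right, and *ITGB3* at 0.59 and 2.38.

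The effect of IR was then compared between the zones. The difference of log2 fold changes, scar minus border, was 3.80 ± 1.31 for *ITGBL1* and 1.43 ± 0.63 for *ITGA8* (SE, edgeR adjusted p = 1.00 for each), and these 2 of 10 genes passed an unadjusted p of at most 0.05, against 1.96% of all genes in that direction. Without pig 9 the differences were 3.06 and 0.67, and without pig 14 they were 4.28 and 1.63. As both zones came from the same animals, the pig was also fitted as a block. Only *ITGA8* then passed, with 1.12 ± 0.47 (SE, edgeR adjusted p = 0.70), against 4.23% of all genes, and *ITGBL1* was at 2.64 ± 1.47. Within single IR pigs, *ITGBL1* was 4.16 and 3.30 log2 units higher in scar than in border tissue of pigs 9 and 11 and 3.05 and 1.13 units lower in pigs 2 and 14. In sham pigs 4, 5, 12 and 13 the same difference was -1.77, -0.86, 0.82 and -2.13. *ITGA8* differed by 2.31 and 1.09 in pigs 9 and 11 and by -0.25 and 0.35 in pigs 2 and 14. Over the 10 genes, exact permutation of these within-pig differences between IR and sham pigs gave p from 0.143 to 0.83 (4 against 4).

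Within the IR pigs, scar against border zone gave log2 fold changes of 2.39 ± 1.05 for *ITGBL1*, 1.30 ± 0.53 for *ITGA8*, 1.09 ± 0.48 for *ITGA11* and 1.08 ± 0.48 for *ITGB3* (SE, edgeR adjusted p = 0.989 for each). *ITGBL1* and *ITGA8* passed an unadjusted p of at most 0.05, against 3.55% of all genes as higher. Without pig 9 the 4 values were 1.69, 0.57, 0.37 and 0.66, and without pig 14 they were 2.86, 1.50002, 1.44 and 1.38. With the pig as a block *ITGBL1* was at 1.39 ± 1.34 and *ITGA8* at 0.96 ± 0.41 and neither passed, and *ITGA5* alone did, as lower in the scar zone by a log2 fold change of -0.30 ± 0.11 (SE, edgeR adjusted p = 0.431), against 4.87% of all genes. *ITGA5* was lower in the scar zone than in the border zone of all 4 IR pigs, by 0.07 to 0.50 log2 CPM. So was *ITGA1*, by 0.03 to 0.34 log2 CPM, and the share of all genes with this pattern is not given here. In TPM, IR pig 11 went the other way for *ITGA5*, with 87.1 in the scar and 79.3 in the border zone, as did IR pigs 9 and 11 for *ITGA1*. In sham pigs, *ITGBL1* was the only one of the 10 to pass an unadjusted p of at most 0.05, as lower in the scar zone, with a log2 fold change of -1.42 ± 0.58 (SE, edgeR adjusted p = 1.00), against 0.478% of all genes. With the pig as a block it was -1.21 ± 0.37 (SE, edgeR adjusted p = 0.941), against 2.05% of all genes.

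Ratios between subunits were compared on the log2(TPM + 0.1) scale, some between chains of one ligand class and some across classes. *ITGA11* to *ITGA1* was 0.469, 1.38, 0.680 and 0.215 in the scar zones of IR pigs 2, 9, 11 and 14 and 0.219 to 0.363 in sham pigs. *ITGB3* to *ITGB5* was 0.168 and 0.131 in IR pigs 9 and 11, and 0.046 to 0.074 in the other 6 scar samples. *ITGA5* to *ITGA7* was 0.310 to 0.491 in IR and 0.399 to 0.628 in sham scar zones. Of 8 exact permutation tests over 4 ratios and both zones, the lowest p was 0.200 before adjustment, for *ITGA5* to *ITGA7* in the scar zone (log2 difference -0.33). The scar zone difference of *ITGA11* to *ITGA1* was 0.84 (exact permutation p = 0.229), 0.40 without pig 9, and 1.29 without pig 14, where it reached the smallest possible p, 0.0286 (3 against 4, unadjusted).

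Because the high scar values were all in male pigs, the effect of IR was compared between the sexes, a test chosen after the values were seen and resting on 2 pigs per sex and group. In the scar zone the log2 fold change of *ITGBL1* was 5.42 ± 0.74 larger in males (SE, edgeR adjusted p = 0.0243) and that of *ITGB3* 2.38 ± 0.34 larger (adjusted p = 0.0251). These 2 of 10 were called, against 1.33% of 14624 genes. Mean *ITGBL1* was 16.8 TPM in male IR and 0.664 TPM in male sham scar zones, and 0.432 and 0.971 TPM in those of females. Mean *ITGB3* was 6.06 and 1.57 TPM in males and 1.16 and 2.22 TPM in females. *ITGA11* was the third gene at an unadjusted p of at most 0.05, which 9.53% of all genes reached as higher, with a difference of 1.79 ± 0.47 (SE, edgeR adjusted p = 0.101). For *ITGAV* and *ITGB1* the differences were 0.00 ± 0.35 and 0.01 ± 0.18 by edgeR, and 0.74 and 0.53 by limma on log2(TPM + 1) (limma adjusted p = 0.263 and 0.220). In the border zone 0 of the 10 were called, against 0.014% of all genes, and *ITGBL1* and *ITGB3* had differences of -0.42 ± 1.20 and 0.27 ± 0.68. Without pig 14 the scar difference was 6.79 for *ITGBL1* (edgeR adjusted p = 0.0332) and 2.37 for *ITGB3* (adjusted p = 0.0839). The call of *ITGBL1* was lost on leaving out any one of pigs 4, 5, 12 and 13 (adjusted p between 0.0574 and 0.112), and that of *ITGB3* on leaving out any one of pigs 2, 4, 5, 12, 13 and 14 (0.0593 to 0.121). Sex cannot be told apart from anything else that the IR pigs 9 and 11 share.

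Markers of some other cells moved with these values. The summed TPM of 8 fibroblast markers, none at 0 in any sample, was 4760 and 6045 in the scar zones of IR pigs 9 and 11, against 821 to 1338 in the other 6 scar samples and 850 to 1239 in the 8 border samples. The 7 leucocyte markers summed to 121 and 96.5 TPM in the same libraries and to between 29.5 and 64.3 TPM in the other scar samples. Mural cell markers summed to 2711 to 5440 TPM in IR and 2473 to 3130 TPM in sham scar zones, and to as much as 6265 TPM in an IR border sample, but most of this was desmin, *DES*, which cardiomyocytes also express, with a median of 2619 TPM. The other 7 mural markers summed to 361 to 816 TPM in IR and 374 to 554 TPM in sham scar zones. Endothelial markers ranged from 234 to 314 TPM in IR and from 272 to 307 TPM in sham scar zones, and 4 of 5 platelet markers summed to 12.4 to 20.3 and 12.04 to 14.1 TPM. The 2 epicardial markers measured summed to 36.1 and 26.8 TPM in IR pigs 9 and 11, 8.61 and 5.41 TPM in IR pigs 2 and 14 and 5.38 to 10.2 TPM in sham scar zones. In border zones this sum reached 22.6 TPM in IR pig 2 and 19.2 TPM in IR pig 11. *KRT8* had the higher median of the 2, 5.18 TPM. *WT1* was at 1.71 to 5.93 TPM in IR and 1.76 to 3.19 TPM in sham scar zones. Adipocyte markers summed to 84.9 to 190 TPM in IR and 62.6 to 130 TPM in sham scar zones. Nearly all of the adipocyte sum was *FABP4*, which endothelium also expresses, and the other 3 markers summed to at most 0.426 TPM in any scar sample. Of these lists, 2 of 4 adipocyte markers and 1 platelet marker were at 0 in at least 1 sample. Cardiomyocyte markers were at 54002 and 53844 TPM in IR pigs 9 and 11, below the 6 other scar samples. This order rested on *MYL3*, the marker with the highest median. Without it the lowest sum was 40093 TPM in IR and 38744 TPM in sham scar zones. The part of these cell types in the integrin values was not tested. The scar libraries of pigs 9 and 11 held 36509900 and 34251200 counts and their border libraries 33521400 and 49045200 counts. No library of another pig held more than 27088700 counts, and the part of depth was not tested.

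The genes with the profile nearest to each integrin over the 16 samples were found by Pearson's r of log2 CPM, as a description. *ITGAV* and *ITGB1* were each other's nearest gene of 12145 (r = 0.972), and *ITGB8*, another beta partner of alpha V, came second for both (r = 0.934 and 0.957). Their r was still 0.968 without the scar samples of pigs 9 and 11. *ITGB3* ran closest to *FNDC1*, *MMP14* and *MMP2* (r = 0.953, 0.892 and 0.892), of which the last pair code for matrix metalloproteinases. *ITGA11* ran closest to *C1QTNF1*, *SLC2A10* and *PRELP*, a collagen-binding proteoglycan (0.948 to 0.922), *ITGA8* to *NXPE3*, *ANGPT4* and *CDH11*, a fibroblast cadherin (0.910 to 0.902), and *ITGBL1* to *RAB23*, *EIF2AK3* and *GLT8D2* (0.921 to 0.864). *ITGA7* was nearest to *METTL7B*, *PAM* and *TENT5B* (0.944 to 0.880), *ITGA1* to *LIFR*, *IREB2* and *NUFIP2* (0.947 to 0.915), *ITGA5* to *PSMB2*, *PFKM* and *IPPK* (0.840 to 0.832) and *ITGB5* to *GRB10*, *ZNF609* and *ZER1* (0.893 to 0.879). Without the scar samples of pigs 9 and 11, r fell from 0.823 to 0.131 between *ITGA8* and *ITGA11*, from 0.780 to 0.297 between *ITGA11* and *ITGB3* and from 0.760 to 0.462 between *ITGB3* and *ITGBL1*. The 2 zones of a pig share an animal, so these 16 points are not independent.

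The ligands of these receptors are given next, in the scar zone. At an unadjusted p of at most 0.05, 8 of 19 tested RGD and related ligands were higher in IR and 1 was lower, against 6.57% and 4.64% of all genes, with a median log2 fold change of 0.49. Tenascin C, *TNC*, was at 37.8 and 42.8 TPM in IR pigs 9 and 11, at 2.05 and 1.35 TPM in IR pigs 2 and 14, and between 0.742 and 2.14 TPM in sham pigs, and its log2 fold change was 3.48 ± 0.95 (SE, edgeR adjusted p = 0.438). Fibronectin, *FN1*, the ligand of the *ITGA5* product, was at 436 and 260 TPM in pigs 9 and 11, at 41.7 and 26.1 TPM in pigs 2 and 14, and between 35.1 and 44.6 TPM in sham pigs. Osteopontin, *SPP1*, a ligand of alpha V integrins, was at 160.5 TPM in pig 9 and 14.9 TPM in pig 11, against 3.48 to 10.001 TPM in the other 6 samples. Vitronectin, *VTN*, was the lower one, with 16.6 ± 1.39 TPM in IR and 20.5 ± 2.80 TPM in sham scar zones (SD, n = 4) and a log2 fold change of -0.50 ± 0.16 (SE, edgeR adjusted p = 0.438).

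Of 10 collagen ligand genes tested, 3 were higher and 0 lower at an unadjusted p of at most 0.05, against 6.57% and 4.64% of all genes, with a median of 0.88. *COL1A1*, a chain of type I collagen and ligand of the *ITGA11* product, was at 1588 and 2026 TPM in IR pigs 9 and 11 and at 284 and 161 TPM in IR pigs 2 and 14, against 172 to 286 TPM in sham pigs. *COL3A1*, of type III collagen, was at 4613 and 3927 TPM in pigs 9 and 11 and between 528 and 1023 TPM in the other 6. In the difference of the IR effect between the sexes, 7 of these 10 collagen genes, 5 of 19 RGD ligands and 5 of 8 fibroblast markers were called, against 1.33% of all genes. This test was chosen after the values were seen, and its 195 calls over all genes became 1 without pig 12 or without pig 13, 26 without pig 4, 51 without pig 5 and 34 without pig 14, and were 129 to 159 without any one of pigs 2, 9 and 11. Laminin genes, which include ligands of the *ITGA7* product, and the genes of nidogens, which bind laminin in the basement membrane, had 2 of 12 higher and 1 lower, against the same shares of all genes, with a median of 0.02, and *LAMB2* was at 185 ± 16.0 TPM in IR and 185 ± 19.5 TPM in sham scar zones (SD, n = 4). The laminin alpha 2 gene was not analysed here.

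Of 43 tested adaptor genes, whose products act inside the cell, 4 were higher and 2 lower at an unadjusted p of at most 0.05, near the 6.57% and 4.64% of all genes, with a median of 0.14. Talin genes *TLN1* and *TLN2*, whose products switch integrins on, had log2 fold changes of 0.16 ± 0.11 and -0.21 ± 0.13, the kindlin gene *FERMT2* 0.00 ± 0.12, vinculin, *VCL*, 0.15 ± 0.13, the integrin-linked kinase gene *ILK* -0.20 ± 0.16 and the focal adhesion kinase gene *PTK2* -0.13 ± 0.10 (SE, edgeR adjusted p between 0.529 and 0.996). Melusin, *ITGB1BP2*, a muscle protein that binds the beta 1 tail, was at 164 ± 27.3 TPM in IR and 133 ± 10.7 TPM in sham scar zones (SD, n = 4; log2 fold change 0.12 ± 0.18, SE). The dystrophin complex, the other laminin link of the muscle cell, had 0 of 10 genes higher and 1 lower, beside the same shares, with a median of -0.15, and *DMD* and *DAG1* had log2 fold changes of 0.05 ± 0.18 and 0.01 ± 0.11. In the border zone, where 2.09% of all genes were higher and 1.69% lower, 2 of 43 adaptor genes were higher, and 0 of the 19 RGD ligand, 10 collagen, 12 laminin and 10 dystrophin complex genes passed in either direction.

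**Figure D4:**
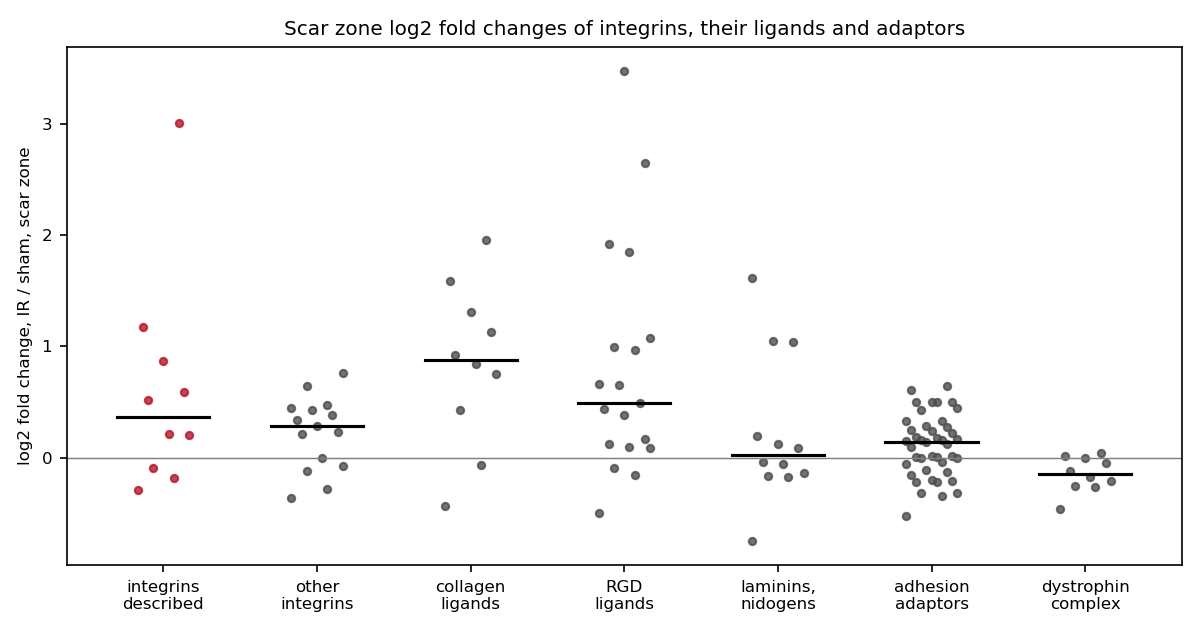
Points give scar zone log2 fold changes (edgeR, IR against sham, n = 4 per group) of single genes in 7 lists, with a black bar at each median. Medians are 0.37 for the 10 integrin genes described (red), 0.88 for collagen ligands, 0.49 for RGD ligands and 0.14 for adaptors.

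Among 15 other integrin subunits tested in the scar zone, 1 was higher and 0 lower at an unadjusted p of at most 0.05, near the 6.57% and 4.64% of all genes, with a median log2 fold change of 0.28, and that gene was *ITGB8* (0.77). *ITGA6*, another laminin receptor chain, had a median of 19.8 TPM over the 16 samples and a log2 fold change of -0.29 ± 0.13. *ITGA9* and *ITGA10* had medians of 4.71 and 2.72 TPM and log2 fold changes of 0.00 ± 0.21 and 0.23 ± 0.24. *ITGB2*, the beta chain of leucocytes, was at 14.1 and 9.94 TPM in IR pigs 9 and 11 and between 3.49 and 9.27 TPM in the other scar samples. The border zone of IR pig 9 held 10.5 TPM, above the scar zone of pig 11. These levels are in TPM, which in the scar library of pig 9 stood 0.54 log2 units higher relative to CPM, so the margin depends on the scale. *ITGA2B*, the platelet partner of *ITGB3*, was at 11.1 ± 2.66 TPM in IR and 10.2 ± 1.11 TPM in sham scar zones (SD, n = 4).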

How the data were processed

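Polyadenylated RNA was sequenced by the authors from 16 samples. Per the labels and the study's methods, reads were trimmed with Trimmomatic 0.33, aligned with HISAT2 2.0.5 and quantified with kallisto 0.43.1 on pig transcripts. The genome build is not given in the sources used here, so no coordinates are printed. The authors deposited estimated counts, not scaled for depth, and TPM, scaled for transcript length and depth. kallisto divides reads between similar transcripts, so values of near-identical genes depend on that division.

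Estimated counts were rounded to whole numbers, genes were filtered by edgeR's filterByExpr (minimum count 10, total 15), libraries were scaled by TMM, and each comparison was tested on its own samples by edgeR's quasi-likelihood test (edgeR 4.0.16, R 4.3.3). Benjamini-Hochberg adjustment ran over all genes tested, and a call needed a 2-fold change and an adjusted p of at most 0.05. SE is the log2 fold change divided by the root of F. Log2 CPM had a prior count of 2. Single values and ratios were tested by exact two-sided permutation over pigs. P-values of IR against sham within a zone measure the spread between these pigs. Fits over both zones without the pig as a block treat the 2 zones of a pig as independent samples, so their p-values and SEs do not measure that spread alone.

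Checked on simulated counts for the scar comparison (13875 genes, 200 changed), edgeR recovered 93% of changes of 2 log2 units and 99% of 3, with 14 false calls, and none where no gene was changed. DESeq2 made 36 false calls there, and 14 where no gene was changed. Recovery of a change present in only some of the IR pigs was not tested. *ITGBL1*, above all sham pigs in 2 of 4 IR pigs, was not called in the scar zone (log2 fold change 3.01, edgeR adjusted p = 0.438). Alternatives were DESeq2 1.42.0, limma 3.58.1 on log2(TPM + 1) and log2(TPM + 0.1) with genes at 1 TPM or more in at least 4 samples, upper-quartile scaling, no count filter, sex in the model, all 16 samples in 1 fit, 1 factor of unwanted variation, the pig as a block, and leaving out each pig. The sex difference and the permutation tests of single genes were added after the data were seen. Zones of one pig come from the same animal and paired: deviations from group means correlated between 0.354 and 0.692 in all 8 pigs.

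Described genes are the 10 members, fixed ligands, adaptors and other integrins, and the 3 genes nearest to each member. Members and lists were chosen with earlier results of these data known. Any gene outside this rule is named after its values were seen.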

Additional observations from a re-analysis of the deposited data

Results flagged for a closer look

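In groups of 4, 3 of 40 sets of log2 CPM values had a sample far from the rest by Dixon's test (values here in TPM), which chance gives in about 1 of 20 sets. *ITGB5* in the scar zone of IR pig 9 was at 49.2 TPM, against 25.7 to 30.8 TPM in the other IR scar samples. *ITGB5* in the border zone of the same pig was at 38.4 TPM, against 23.8 to 26.4 TPM. *ITGA8* in the border zone of IR pig 2 was at 0.689 TPM, against 0.796 to 0.969 TPM.

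The effect of IR in the scar zone differed between males and females for *ITGBL1*, by 5.42 log2 units, and for *ITGB3*, by 2.38 log2 units (edgeR adjusted p = 0.0243 and 0.0251, 2 pigs per sex and group). This test was chosen after the values were seen, and the part of sex in it cannot be told apart from that of the IR pigs 9 and 11.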

How the results depend on the processing

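Over the 10 genes, 438 values were recomputed under another tool, filter, scaling or model and 560 without 1 pig. Of these 21 and 44 changed sign, all from reported values of at most 0.45 log2 units and none with a p of at most 0.05 after the change, and they reached sizes of up to 0.29 and 2.42. limma's filter left out *ITGBL1* in the scar zone and *ITGA8* in the border zone and in scar against border, so its counts there are over 9 genes. The cause was not tested in any case. The libraries were deep enough for at least 10 counts of each gene in every sample, and 4 pigs per group limit the precision.

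Of the counts over the 10 genes, the number at an unadjusted p of at most 0.05 moved most. It is given beside the share of all genes in the same fit. In the scar zone it was 1 by edgeR (11.2% of all genes), 3 by DESeq2 (12.8%), 2 without the count filter (10.7%), 4 in 1 fit of all 16 samples (13.3%), 2 with 1 factor of unwanted variation (16.8%) and 0 by exact permutation, and 0 (without pig 12) to 4 (without pig 2 or 14) on leaving out a pig. It was 0 in the border zone, and 1 without pig 9 (6.94%) or 12 (4.37%). For scar against border within IR pigs it was 2 (4.35%), with 4 by DESeq2 (5.27%) and without the filter (4.36%), 0 by limma with either pseudocount (1.68% and 1.64%), and 0 (without pig 9 or 11, 1.34% and 1.36%) to 4 (without pig 2, 5.38%). In sham pigs it was 1 (0.819%), with 0 by limma with either pseudocount (0.697% and 0.681%), and 0 (without pig 4 or 13) to 2 (without pig 12, 0.95%). For scar minus border effects of IR it was 2 (2.22%), with 0 by limma with either pseudocount (0.848% and 0.777%), and 1 (without any one of pigs 4, 9, 11, 12 and 13) to 3 (without pig 2 or 14, 4.43% and 3.9%). With the pig as a block it was 1 for this difference (7.03%) and 1 for scar against border in IR pigs (11.4%), and the block changed no other count and no call.

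The 2 calls of the sex difference in the scar zone became 1 by limma with either pseudocount, as *ITGBL1* was left out, and ranged from 0 to 3 without a pig. At an unadjusted p the count of 3 (18.5%) was 5 by limma on log2(TPM + 1) (21.7%). *ITGA11* also passed the threshold by DESeq2 (1.79, adjusted p = 0.00363) and without the filter (edgeR adjusted p = 0.0485). In the border zone the count at an unadjusted p was 0 by edgeR (6.91%), 2 by DESeq2 (6.69%), 2 without the filter (6.56%) and 3 by limma with either pseudocount (6.8% and 6.66%), and 1 to 3 without a pig (4.21% to 9.31%).

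Some small differences changed sign. In the scar zone *ITGA5* was 0.057 by limma on log2(TPM + 1) and 0.058 on log2(TPM + 0.1), and -0.20 to 0.041 without a pig, and *ITGB5* was 0.017 by limma with either pseudocount. The sex difference of *ITGAV* was -0.0039 by DESeq2 and -0.29 to 0.35 without a pig, and that of *ITGB1* was -0.058 to 0.072. By limma with pseudocounts of 1 and 0.1 these were 0.74 and 0.76 for *ITGAV* and 0.53 with either for *ITGB1*. In the border zone the sex difference of *ITGBL1* was 0.20 by limma on log2(TPM + 0.1) and -1.30497 to 2.42 without a pig, and that of *ITGB3* was -0.28 to 1.20. Log2 ratios without a pig ran from -0.30 to 0.20 for *ITGA11* to *ITGA1* in the border zone and from 0.40 to 1.29 in the scar zone (exact permutation p = 0.0286 without pig 14, 3 against 4), from -0.32 to 0.10 for *ITGB3* to *ITGB5* in the border zone, and for the alpha sum to *ITGB1* from -0.046 to 0.20 in the border and from -0.18 to 0.0498 in the scar zone. Within-pig differences gave 0 genes at an exact p of at most 0.05, and 1 without pig 2 (*ITGA8*). The share of all genes in this test is not given here, so this count cannot be set against it. From CPM, which is not scaled for length, *ITGA1*, *ITGA5* and *ITGA7* made up 4.37%, 48.5% and 35.9% of the alpha sum.

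Over all genes, 0 were called in the scar zone by edgeR, 52 by DESeq2 and 3 and 1 by limma with pseudocounts of 1 and 0.1. Border zone calls were 0 by edgeR and 2 by DESeq2. Scar against border gave 0, 4 (DESeq2) and 2 (limma with either pseudocount) in IR pigs and 0, 1 (DESeq2) and 1 (limma on log2(TPM + 1)) in sham pigs. The sex difference gave 195 in the scar zone, 703 by DESeq2, 430 without the filter, 433 and 352 by limma, and 1 (without pig 12 or 13) to 159 (without pig 11) without a pig. It gave 2 in the border zone, 45 by DESeq2, 10 without the filter, 5 and 4 by limma, and 0 to 6 without a pig.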

Other observations

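*ITGB6*, an epithelial beta partner of alpha V that was named after its values were seen, had a median of 18.9 TPM over the 16 samples (range 12.5 to 28.2), close to that of *ITGAV*, 16.8 TPM. It was at 12.9, 15.9, 13.6 and 22.9 TPM in the scar zones of IR pigs 2, 9, 11 and 14 and at 20.4, 22.9, 22.7 and 18.7 TPM in those of sham pigs 4, 5, 12 and 13, so that 3 of 4 IR pigs were below all sham pigs. The difference of its IR effect between the sexes was -0.997 log2 units in the scar zone (edgeR adjusted p = 0.211). *ITGB8*, chosen in the same way, was at 6.71 and 4.51 TPM in the scar zones of IR pigs 9 and 11, and between 1.24 and 3.36 TPM in the other 14 samples.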
